A study of Homo sapiens with 6 samples.

Results

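The genes described here are 8 homeobox transcription factor genes of 3 families, PITX1 and PITX3, MEIS1, MEIS2 and MEIS3, and PBX2, PBX3 and PBX4. They were found by symbol among the 32434 gene IDs of the table, and all 8 were present. PITX1 was chosen by its measured FPKM difference between the groups of these same libraries, so its values are given as a description with no test. The other 7 entered by family name. The libraries came from SK-N-BE(2), an established human neuroblastoma cell line, kept in RPMI medium with fetal bovine serum. In both groups the cells were infected with lentiviral particles for 24 h and selected in puromycin for 48 h. The shNC group (3 libraries, genotype given as control) carried a control hairpin and the shMYT1 group (3 libraries) a short hairpin RNA against MYT1, a zinc-finger transcription factor gene of developing neurons. The genotype label and the design text say MYT1 knockout while the protocol says stable knockdown, and the groups are treated here as a knockdown. Neither the number of hairpins nor whether the replicates were separate cultures is stated, so p-values measure only the spread between these libraries.

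Homeobox genes encode proteins that bind DNA through a homeodomain. PITX proteins belong to the paired-like class: PITX1 is known for hindlimb identity and pituitary development, and PITX3 for midbrain dopaminergic neurons and the lens. MEIS and PBX proteins belong to the TALE class, named for a 3 amino acid loop extension in the homeodomain, and bind DNA beside HOX proteins as their cofactors. MEIS2 is also known as a factor on which neuroblastoma cells depend. The comparison asks whether the levels of these factors differ when MYT1 is lowered. The series title sets MYT1 against retinoic acid signalling and differentiation, and HOX, MEIS and PBX genes are textbook components of the retinoid response.

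The DNA-binding parts of the 8 genes show how the families differ. Codon 50 here follows homeodomain numbering, which leaves out the 3 extra codons of the TALE loop in the MEIS and PBX genes. The 30 coding bases around codon 50, which encode part of the helix that reads the DNA, are given for each gene. Codon 50 is in capitals, 5′ to 3′ on the coding strand, from the transcripts of GENCODE 29.
PITX1: gtgcgggtctggttcAAGaaccggcgagcc
PITX3: gtgcgggtgtggttcAAGaaccggcgcgcc
MEIS1: gtgaacaattggtttATTaatgcccggaga
MEIS2: gtaaacaactggtttATTaatgccagaaga
MEIS3: gtcaacaactggttcATTaacgcccggaga
PBX2: gtctccaactggtttGGCaacaagaggatt
PBX3: gtatccaattggtttGGCaacaaacgaatc
PBX4: gtctctaactggtttGGCaacaaaagaatc
Codon 50 was AAG in both PITX genes, ATT in the 3 MEIS genes and GGC in the 3 PBX genes. The whole homeobox is printed for PITX1, which had the lowest log2 difference of the members, and for MEIS3, which had the highest, with codon 50 and, in MEIS3, the 3 extra codons of the TALE loop in capitals.
PITX1 homeobox: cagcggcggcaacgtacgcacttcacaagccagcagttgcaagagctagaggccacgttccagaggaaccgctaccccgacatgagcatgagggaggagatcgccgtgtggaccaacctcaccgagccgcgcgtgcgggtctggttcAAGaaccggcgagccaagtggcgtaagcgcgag
MEIS3 homeobox: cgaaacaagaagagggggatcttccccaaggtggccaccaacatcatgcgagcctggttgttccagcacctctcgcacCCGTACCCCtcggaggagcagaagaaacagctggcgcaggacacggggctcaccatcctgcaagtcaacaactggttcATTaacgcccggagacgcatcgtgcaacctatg
The homeobox of PITX1 spans 180 bases and that of MEIS3 189. Within families the homeoboxes were alike in DNA: 90.6% of bases were identical between PITX1 and PITX3, 77.2 to 83.6% among the MEIS genes and 79.4 to 79.9% among the PBX genes.

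Values are FPKM, fragments per kilobase of exon scaled to the size of each library, and the libraries held between 1.8158e+07 and 2.1678e+07 fragments. Differences between the groups are given as log2 differences, the shMYT1 mean minus the shNC mean of log2(FPKM + 1), a scale that understates the change of low genes. A gene rose or fell where its adjusted p passed the threshold of 0.05. MYT1 itself averaged 5.34 ± 0.34 FPKM in the shNC and 4.23 ± 0.11 FPKM in the shMYT1 libraries (± SD, n = 3 per group), a log2 difference of -0.28 with an adjusted p from limma of 0.0102. All 10 noradrenergic neuroblastoma markers checked, among them HAND2 and GATA3, averaged at least 1 FPKM. Of the 10, 3 rose and 3 fell. Their sum was between 3366 and 3523 FPKM in the shNC and between 2955 and 3046 FPKM in the shMYT1 libraries. MYCN, 1 of the 10, was alone at 1861 to 1923 FPKM in shNC and 1530 to 1592 FPKM in shMYT1. Marker sums, here and below, follow mainly the highest markers and not the set as a whole. Of the marker lists of other cell types, 0 of 4 immune and 0 of 4 endothelial markers in the table reached 1 FPKM, and 1 of 4 epithelial and 2 of 6 Schwann cell and glial markers did. Of 10 fibroblast and smooth muscle markers 9 reached it, with LUM, THY1 and COL1A1 highest. Of these 10, 4 rose and 3 fell. They summed to between 196 and 201 FPKM in the shNC libraries and between 154 and 157 FPKM in the shMYT1 libraries, and the part of these markers in the members' differences was not tested. In such bulk RNA, fewer cells of a type and less RNA per cell cannot be told apart.

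PITX1 was lower in shMYT1 cells by more than any other member. PITX1 (ENSG00000069011, chromosome 5, 135027735 to 135034813, minus strand, hg38) was measured at 8.36, 8.49 and 8.92 FPKM in shNC replicates 1, 2 and 3. In shMYT1 replicates 1, 2 and 3 it was at 3.74, 3.85 and 4.06 FPKM. The lowest shNC library thus stood well above the highest shMYT1 library, and each group spanned little. The means were 8.59 ± 0.30 and 3.88 ± 0.16 FPKM (± SD, n = 3 per group), a change of -54.8%, and the log2 difference was -0.97. Between 626 and 657 fragments lay behind the shNC values and 239 to 262 behind the shMYT1 values, with a counting error near 4.0% in shNC and of 6.18 to 6.47% in shMYT1. Among the 14106 genes tested, 52 had a lower log2 difference than PITX1. These values chose the gene and support nothing further.

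The neighbours of PITX1 went both ways. Of the 68 other tested genes within 5 Mb, 6 rose and 5 fell, and their median log2 difference was -0.03. None of the 68 had a lower log2 difference than PITX1, a ranking that the choice of PITX1 for its fall made likely. An antisense gene, AC008406.3, shares 293 exon bases with PITX1, or 8.35% of its exon length, and held at most 2 fragments in any library. C5orf66, which runs through the locus on the opposite strand and shares no exon base with PITX1, was named after its values were seen. It was at 0.371, 0.301 and 0.316 FPKM in shNC and at 0.196, 0.230 and 0.245 FPKM in shMYT1. The groups of C5orf66 did not overlap, as for 26.7% of all genes in the table, but it lay under the filter and did not pass in the fit without it (log2 difference -0.12, adjusted p by limma = 0.243).

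PITX3, the close relative of PITX1 with a role in dopaminergic neurons, was at the limit of detection. It (ENSG00000107859, chromosome 10, 102230186 to 102241474, minus strand) was listed at 0.167, 0 and 0.0343 FPKM in shNC replicates 1, 2 and 3. In shMYT1 it was listed at 0.144, 0.0813 and 0.162 FPKM. These values stand for 0 to 5 fragments per library, and 3 fragments correspond to 0.10 to 0.122 FPKM for this gene, so no difference was detectable at this depth (adjusted p by limma = 0.570 in the fit without a filter, where 7.89% of 32434 genes passed, 3.84% higher and 4.05% lower).

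**Figure D1:**
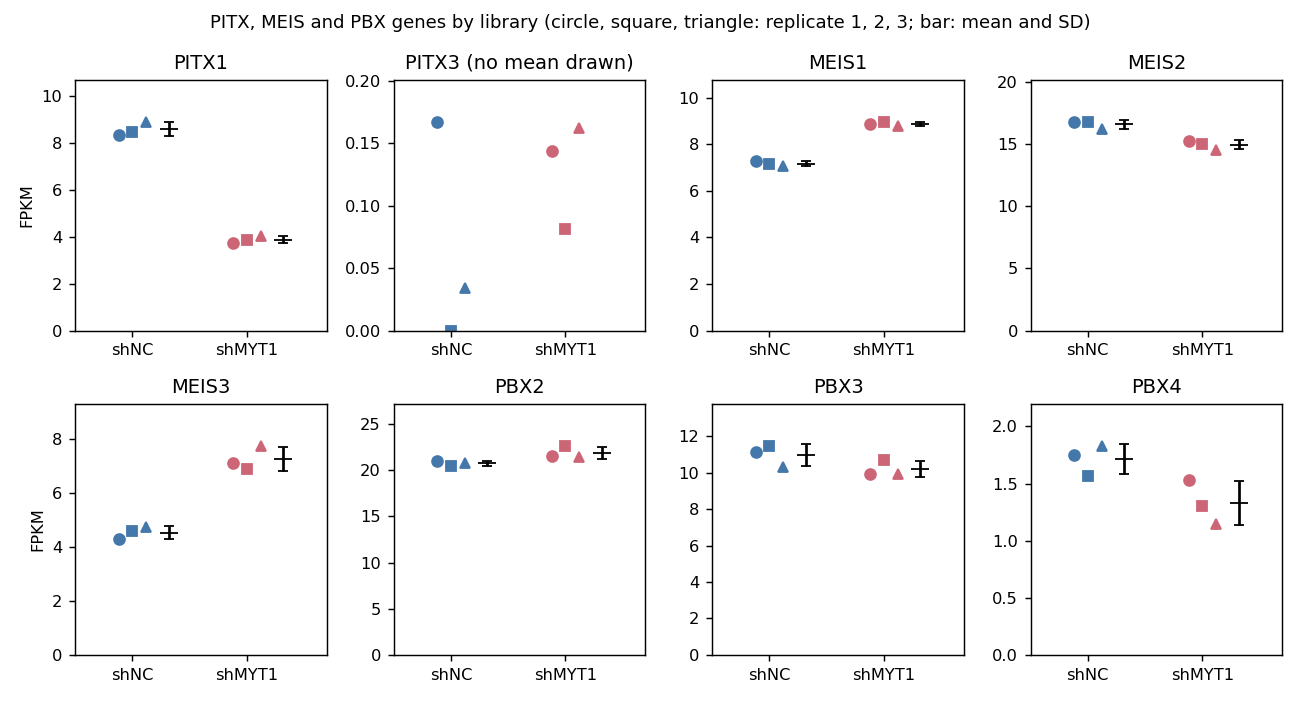
FPKM (vertical axes, each from 0) of the 8 genes in the 3 shNC and 3 shMYT1 libraries, with symbols for replicates 1, 2 and 3 and a bar for the mean and SD, left out for PITX3. PITX1 is between 8.36 and 8.92 FPKM in shNC and between 3.74 and 4.06 FPKM in shMYT1, MEIS1 and MEIS3 are higher in shMYT1, and PITX3 stays under 0.2 FPKM.

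The MEIS genes moved in different directions. Apart from PITX1, 6 members were tested: MEIS1 and MEIS3 rose, MEIS2 fell, and the 3 PBX genes did not pass. These 3 of 6 stand beside 24.2% of all genes tested that passed in either direction, 11.9% higher and 12.3% lower in shMYT1. Of all genes past the threshold 49.2% were higher, and 36.4% were with the libraries rescaled to the same FPKM total. The groups did not overlap for 5 of the 6, all but PBX3, against 42.3% of all genes tested, 20.5% with shMYT1 higher and 21.8% with shMYT1 lower.

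MEIS1, a HOX cofactor also known from leukaemia, rose slightly and evenly. MEIS1 (ENSG00000143995, chromosome 2, 66433452 to 66573869, plus strand) was at 7.27, 7.17 and 7.05 FPKM in shNC and at 8.85, 8.98 and 8.80 FPKM in shMYT1 (replicates 1, 2 and 3). Every shMYT1 library was above every shNC library, and the range within each group was far smaller than the distance between them. The means were 7.17 ± 0.11 and 8.88 ± 0.09 FPKM (± SD, n = 3 per group), 1.24-fold, with a log2 difference of 0.27 (SE 0.03, adjusted p by limma = 0.00180). Among the 55 other tested genes within 5 Mb the median log2 difference was -0.01, and none was higher than MEIS1. MEIS1 shares 439 exon bases (4.02% of its length) with the antisense gene MEIS1-AS2, which held at most 3 fragments in a library.

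MEIS2, the MEIS gene with the highest level, fell by a small amount. MEIS2 (ENSG00000134138, chromosome 15, 36889204 to 37101299, minus strand) was at 16.8, 16.8 and 16.2 FPKM in shNC and at 15.3, 15.0 and 14.6 FPKM in shMYT1. The groups did not overlap, with the lowest shNC value near the highest shMYT1 value. The means were 16.6 ± 0.34 and 14.96 ± 0.36 FPKM (± SD, n = 3 per group), a log2 difference of -0.14 (SE 0.03, adjusted p by limma = 0.0226), and 2796 to 3888 fragments lay behind each value. It no longer passed without shNC replicate 1 (adjusted p by limma = 0.0744), shNC replicate 2 (0.0843), shMYT1 replicate 2 (0.0547) or shMYT1 replicate 3 (0.0669), each a fit with fewer libraries.

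MEIS3 rose most of the members. MEIS3 (ENSG00000105419, chromosome 19, 47403124 to 47419523, minus strand) was at 4.29, 4.58 and 4.74 FPKM in shNC and at 7.12, 6.88 and 7.75 FPKM in shMYT1. Each shMYT1 library was above each shNC library, with shMYT1 replicate 3 highest. The means were 4.54 ± 0.23 and 7.25 ± 0.45 FPKM (± SD, n = 3 per group), 1.6-fold, with a log2 difference of 0.58 (SE 0.05, adjusted p by limma = 0.000891). MEIS3 lies in a stretch of chromosome 19 whose genes were mostly higher in shMYT1: of 167 other tested genes within 5 Mb, 95 rose and 1 fell, with a median log2 difference of 0.27. MEIS3 was above 159 of these 167. With the running median of 50 neighbouring genes removed its log2 difference was 0.29 (adjusted p by limma = 0.0149), about the size of the regional median of 0.29 that was taken away.

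MEIS3 has close copies in the genome. The processed pseudogenes MEIS3P1 and MEIS3P2 were 96.6% identical to MEIS3 over 957 and 1075 aligned bases, so fragments from these stretches may be split between them. MEIS3P1, named after its values were seen, was at 3.99, 3.73 and 4.98 FPKM in shNC and at 2.77, 3.48 and 3.35 FPKM in shMYT1. Its difference was opposite in sign to that of MEIS3 and did not pass (log2 difference -0.31, adjusted p by limma = 0.0768), and 53 to 100 fragments lay behind its values against 472 to 728 behind those of MEIS3. MEIS3P2 held at most 5 fragments in a library.

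Because FPKM is a level per length, the 3 MEIS genes can be summed. The length is that of all annotated exons, 10934 bases for MEIS1, 10798 for MEIS2 and 5122 for MEIS3. It is not that of the transcripts expressed, so the size of each share depends on the annotation. Their summed level was 28.3, 28.6 and 28 FPKM in shNC and 31.3, 30.9 and 31.1 FPKM in shMYT1. MEIS2 held 57.9 to 59.2% of the sum in shNC and 46.8 to 48.9% in shMYT1. MEIS3 held 15.1 to 16.9% and 22.3 to 24.9%, and MEIS1 25.1 to 25.7% and 28.3 to 29.1%. The share of MEIS2 was thus lower, and those of MEIS1 and MEIS3 higher, in every shMYT1 library than in any shNC library. These shares are computed from the levels above and are no separate result. The level of MEIS2 itself changed by -9.87%, so its lower share also reflects the rises of MEIS1 and MEIS3. For single genes, the groups did not overlap for 42.3% of all genes tested. The log2 difference of MEIS3 was 0.58, and 0.29 with the running median of 50 neighbouring genes removed. MEIS2 remained the MEIS gene with the highest level in all 6 libraries.

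The PBX genes, whose proteins pair with both HOX and MEIS proteins, did not pass the test. PBX2 (ENSG00000204304, chromosome 6, 32184741 to 32190186, minus strand) had the highest level of all members, at 20.99, 20.5 and 20.8 FPKM in shNC and at 21.5, 22.6 and 21.5 FPKM in shMYT1. The shMYT1 libraries were all above the shNC libraries, by little. The log2 difference of PBX2 was 0.07 (95% interval -0.0019 to 0.15, adjusted p by limma = 0.144). It was 0.03 with the running median of 50 neighbouring genes removed and 0.04 with the libraries rescaled to the same FPKM total, without passing in either. PBX2 shares 654 exon bases, or 15.1% of its exon length, with the noncoding gene AL662884.1 on the same strand. AL662884.1 was listed at 0.171 FPKM or less. The shared bases are 98.8% of its exon length, so that value cannot show how many fragments there came from it. Its processed pseudogene PBX2P1, 98.6% identical over 1290 bases, held at most 9 fragments in a library against 1656 or more for PBX2.

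PBX3 (ENSG00000167081, chromosome 9, 125747345 to 125967377, plus strand) was at 11.1, 11.5 and 10.3 FPKM in shNC and at 9.93, 10.7 and 9.96 FPKM in shMYT1. The groups overlapped, since shMYT1 replicate 2 lay above shNC replicate 3. The log2 difference of PBX3 was -0.10 (95% interval -0.22 to 0.02, adjusted p by limma = 0.204). The interval includes the value of MEIS2, so a change of that size could have been missed.

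PBX4 (ENSG00000105717, chromosome 19, 19561707 to 19618916, minus strand) was the lowest TALE gene of the members, at 1.75, 1.57 and 1.83 FPKM in shNC and at 1.53, 1.31 and 1.15 FPKM in shMYT1. The groups did not overlap but nearly met. Its log2 difference was -0.22 (95% interval -0.43 to -0.01, adjusted p by limma = 0.114), and only 52 to 98 fragments lay behind each value, a counting error of 10.1 to 13.9%. On the recovered fragments, with no constant added to FPKM, voom gave -0.37 for PBX4, also without passing (adjusted p by limma = 0.106). Its surroundings were lower in shMYT1 as well: of 156 other tested genes within 5 Mb, 5 rose and 42 fell, with a median log2 difference of -0.14. With the running median of 50 neighbouring genes removed, the log2 difference of PBX4 was -0.06 (adjusted p by limma = 0.678).

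The 3 PBX members summed to 32.9 to 33.9 FPKM in shNC and 32.6 to 34.6 FPKM in shMYT1, so that the sum overlapped between the groups. PBX2 held 61.1 to 63.1% of it in shNC and 65.3 to 65.9% in shMYT1. The size of this share also depends on the annotated exon lengths.

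**Figure D2:**
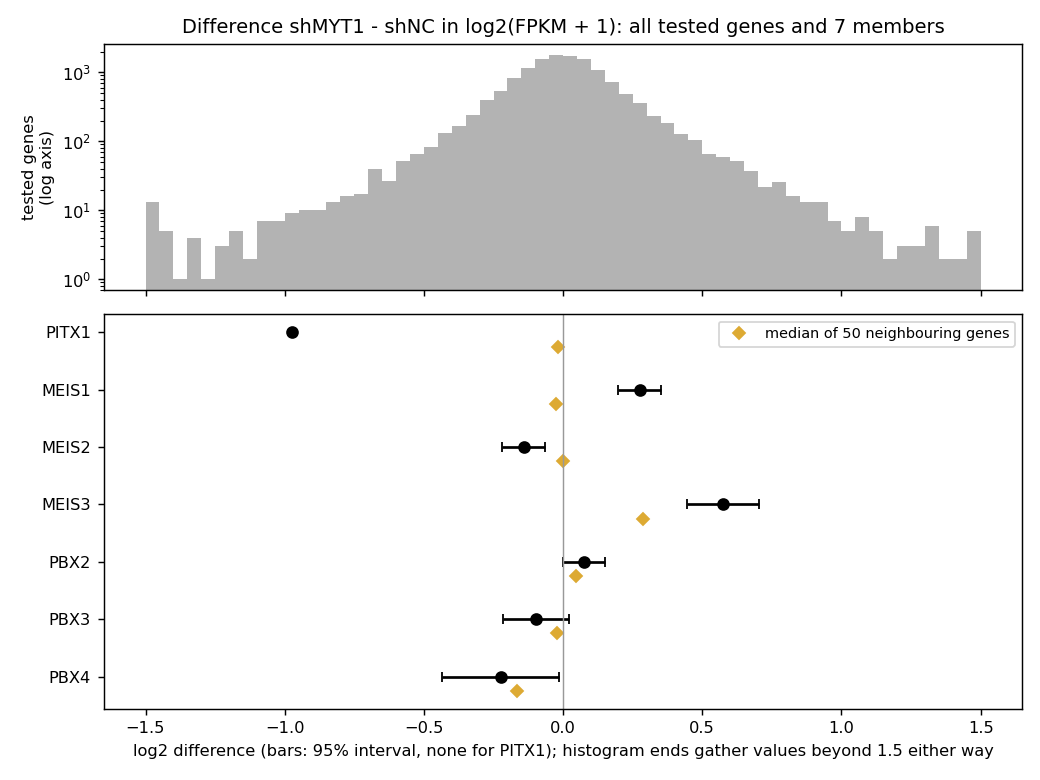
Difference between groups in log2(FPKM + 1), shMYT1 minus shNC, for all 14106 tested genes (upper histogram, log axis) and for 7 members (lower panel, points with 95% intervals, none for PITX1), with diamonds for the median of 50 neighbouring genes. PITX1 is at -0.97 with a regional median near 0, while the diamonds of MEIS3 (0.29) and PBX4 (-0.16) are displaced in the direction of the gene.

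**Figure D3:**
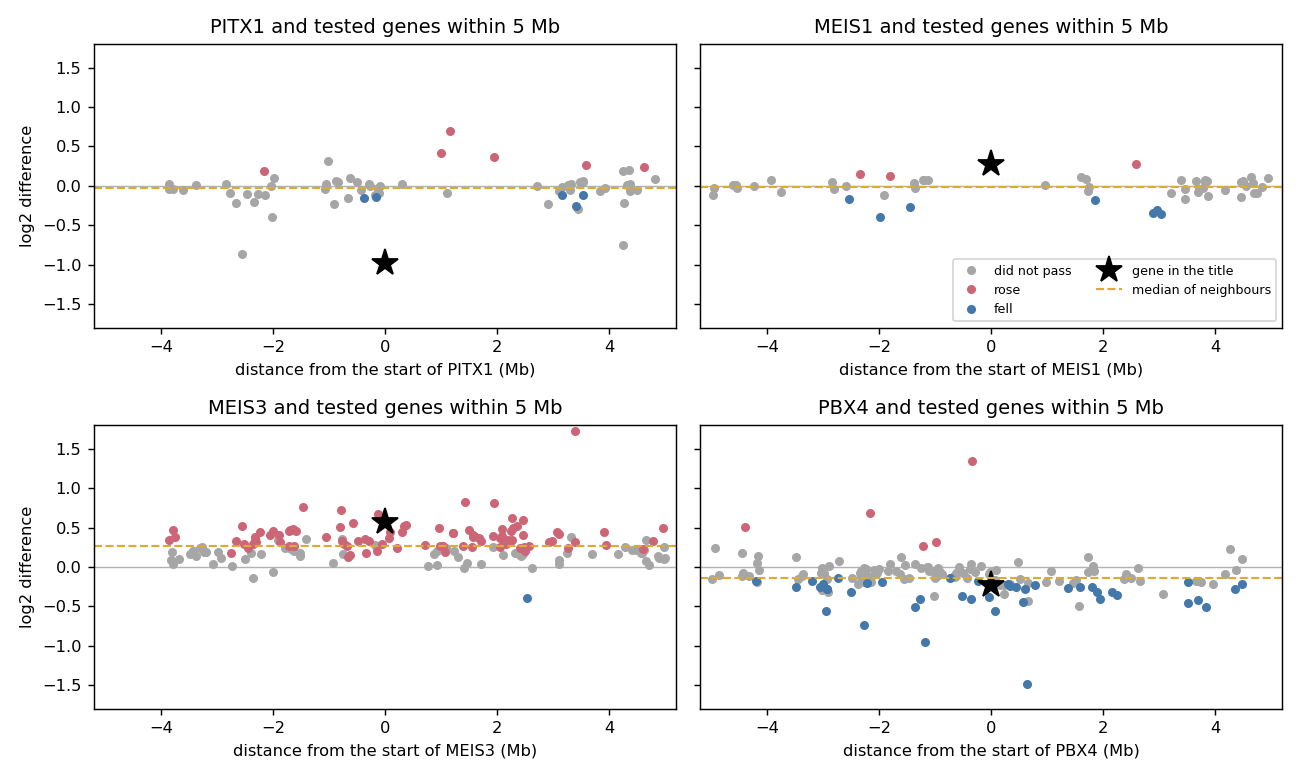
Log2 difference of PITX1, MEIS1, MEIS3 and PBX4 (stars) and of the other tested genes within 5 Mb (points, red where they rose, blue where they fell, grey where they did not pass) against the distance from the start of the gene in Mb. The dashed medians are near 0 around PITX1 and MEIS1, at 0.27 around MEIS3 and at -0.14 around PBX4.

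**Figure D4:**
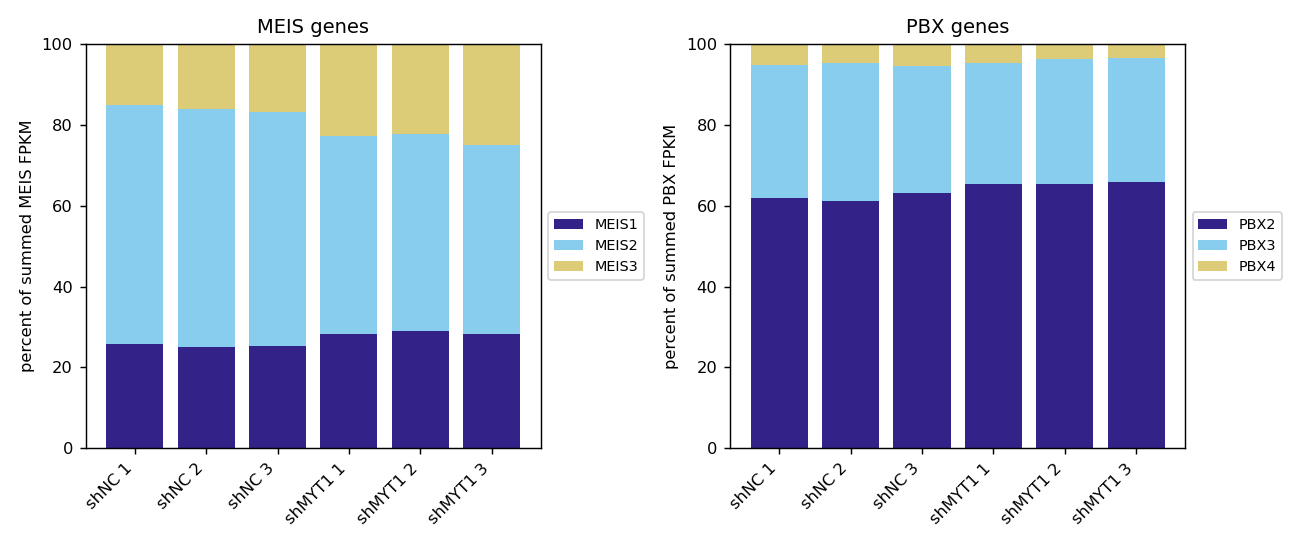
Percent of the summed FPKM of the 3 MEIS genes (left) and of the 3 PBX members (right) held by each gene in each library, as stacked bars from 0 to 100. MEIS2 holds 57.9 to 59.2% in shNC and 46.8 to 48.9% in shMYT1, while the PBX bars differ less between groups.

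The order of the levels differed between the groups only in the place of PITX1. That gene was chosen for its difference between the groups, so its change of place is no separate result. In shNC it ran PBX2, MEIS2, PBX3, PITX1, MEIS1, MEIS3, PBX4 and PITX3, from highest to lowest. In shMYT1 PITX1 stood below both MEIS1 and MEIS3. Both orders depend on the annotated exon length by which each gene's fragments were divided. The ranges of neighbours in these orders did not overlap within a group, the closest being MEIS1 (7.05 to 7.27 FPKM) and PITX1 (8.36 to 8.92 FPKM) in shNC, and PBX3 (9.93 to 10.7 FPKM) and MEIS1 (8.80 to 8.98 FPKM) in shMYT1. Over the 6 libraries the Pearson r of log2(FPKM + 1) with PITX1 was -0.998 for MEIS1, -0.966 for MEIS3, 0.915 for MEIS2, 0.649 for PBX3, 0.792 for PBX4 and -0.827 for PBX2. The libraries form 2 groups, so these values mostly restate the difference between groups.

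The protein-coding genes most like PITX1 by this measure were GPX3, SPAG9, TRIM25, SHD and ITSN2, each with r = 0.999 over 6 libraries. GPX3, a secreted glutathione peroxidase gene, was at 3.07 ± 0.04 FPKM in shNC and 2.21 ± 0.03 FPKM in shMYT1 (± SD, n = 3 per group). SHD, which encodes an SH2 domain adaptor, was at 39.2 ± 1.58 and 12.3 ± 0.24 FPKM (± SD, n = 3 per group). TRIM25, a ubiquitin ligase gene of RNA sensing, was at 13.6 and 9.21 FPKM, SPAG9, a scaffold gene of JNK signalling, at 31.7 and 27.3 FPKM, and ITSN2, an endocytic scaffold gene, at 2.91 and 2.02 FPKM. They lie on chromosomes 5, 17, 19 and 2. Of 11175 protein-coding genes 108 had r above 0.99, so the 5 are a small choice among many with nearly the same pattern. The median log2 difference of 50 neighbouring genes was -0.15 for SHD, -0.13 for TRIM25, -0.09 for SPAG9, -0.06 for GPX3 and -0.00094 for ITSN2. With that median removed, TRIM25 went from -0.52 to -0.39 and SPAG9 from -0.21 to -0.12, and all 5 still passed. The 5 were chosen for following PITX1 in these same libraries, which made their passing likely, so it is no separate result.

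Among other TALE genes and partners of PBX, 13 were listed and 7 tested, of which 2 rose, 0 fell and 5 did not pass. Of all genes tested 24.2% passed, 11.9% higher and 12.3% lower, so 2 of 7 is near the share of all genes. The median log2 difference of the 7 was 0.11, against -0.0048 over all genes tested. PBXIP1, whose product binds PBX proteins and hinders their binding to DNA, was at 11.2, 10.96 and 11.6 FPKM in shNC and at 14.3, 14.5 and 15.4 FPKM in shMYT1. Its groups lay well apart (log2 difference 0.37, SE 0.04, adjusted p by limma = 0.00136). TGIF2, a TALE repressor of TGF-beta signalling, rose from 17.1 ± 0.74 to 19.3 ± 0.09 FPKM (± SD, n = 3 per group; log2 difference 0.16, adjusted p by limma = 0.0202). TGIF2 lost its call without shNC replicate 1 or 2, or any 1 shMYT1 replicate, with adjusted p by limma from 0.0567 to 0.0631.

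Among HOX genes, whose proteins use MEIS and PBX as cofactors, 10 of 39 listed were tested. Of these 0 rose, 3 fell and 7 did not pass, with a median log2 difference of -0.10, beside 12.3% of all genes tested that fell and 24.2% that passed either way. HOXC10 was at 4.19, 3.78 and 3.50 FPKM in shNC and at 1.96, 1.75 and 2.61 FPKM in shMYT1 (log2 difference -0.64, SE 0.11, adjusted p by limma = 0.00802). HOXC11 went from 1.79 ± 0.12 to 1.05 ± 0.16 FPKM (± SD, n = 3 per group; adjusted p by limma = 0.0138), and HOXD8 from 6.75 ± 0.33 to 5.24 ± 0.36 FPKM (± SD, n = 3 per group; adjusted p by limma = 0.00887). The groups did not overlap for 5 of the 10 tested HOX genes, these 3 among them, against 42.3% of all genes tested. With voom on the recovered fragments the log2 difference of HOXC11 was -0.76, against -0.44. HOXC11 did not pass without shNC replicate 1 (adjusted p by limma = 0.0510).

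Paired-like homeobox genes, the class of PITX1, went both ways. From 27 listed symbols 6 genes were tested, of which 2 rose, 2 fell and 2 did not pass, with a median log2 difference of 0.10. Over all genes tested 11.9% rose and 12.3% fell. DRGX, a gene of sensory neurons, was at 3.14, 3.20 and 3.00 FPKM in shNC and at 1.72, 1.78 and 2.01 FPKM in shMYT1 (log2 difference -0.54, SE 0.06, adjusted p by limma = 0.00167). PRRX2, a mesenchymal factor gene, fell from 69.6 ± 4.36 to 56.6 ± 3.07 FPKM (± SD, n = 3 per group; adjusted p by limma = 0.0121). SHOX2, a gene of limb and heart development, rose from 7.43 ± 0.42 to 9.40 ± 0.45 FPKM (± SD, n = 3 per group; adjusted p by limma = 0.00793).

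Genes linked to PITX factors in pituitary, dopaminergic neurons and hindlimb were mostly low. Of 28 listed 9 were tested, of which 1 rose, 2 fell and 6 did not pass, with a median log2 difference of -0.01. These 3 of 9 stand beside 24.2% of all genes tested. NEUROD1, which acts with PITX1 on the POMC gene in pituitary cells, was at 3.85, 3.80 and 4.05 FPKM in shNC and at 1.59, 2.03 and 2.11 FPKM in shMYT1. Its highest shMYT1 library was far below its lowest shNC library (log2 difference -0.76, SE 0.08, adjusted p by limma = 0.00131). TH, the tyrosine hydroxylase gene and a PITX3 target in the midbrain, also fell (log2 difference -0.26, adjusted p by limma = 0.00340). ISL1, a LIM homeobox gene of hindlimb and sympathetic neurons, rose from 32.3 ± 0.60 to 37.3 ± 0.90 FPKM (± SD, n = 3 per group; adjusted p by limma = 0.00422).

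Of the 20 listed M-phase genes that MEIS2 has been tied to in neuroblastoma, 19 were tested, of which 0 rose, 5 fell and 14 did not pass, with a median log2 difference of -0.04. The 5 of 19 past the threshold are near the 24.2% of all genes tested, of which 12.3% fell. LIN9, a subunit gene of the MuvB complex, went from 7.47 ± 0.22 to 6.04 ± 0.48 FPKM (± SD, n = 3 per group; adjusted p by limma = 0.0165). BIRC5, the survivin gene, fell by 0.25, CCNB2 (cyclin B2) by 0.21 and AURKB (Aurora B kinase) by 0.20 on the log2 scale, with adjusted p by limma = 0.00416, 0.0117 and 0.0149. LIN9 and AURKB did not pass without shNC replicate 1 or shMYT1 replicate 1 (adjusted p by limma from 0.0501 to 0.0585), and the count that fell was then 2. FOXM1 and MYBL2, the transcription factor genes of this programme, had log2 differences of -0.04 and -0.02 and did not pass (adjusted p by limma = 0.404 and 0.839).

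Transcription factors of the noradrenergic neuroblastoma state, beside which MEIS and PBX genes are expressed, went both ways. All 16 listed were tested, of which 5 rose, 5 fell and 6 did not pass, with a median log2 difference of -0.07. Over all genes tested 24.2% passed, 11.9% higher and 12.3% lower. DACH1 rose by 0.66 and TBX2 by 0.51 (SE 0.11 and 0.05, adjusted p by limma = 0.00679 and 0.000952), and DACH1, at 0.635 and 1.59 FPKM, by 1.30 with voom on the recovered fragments. The median of 50 neighbouring genes of DACH1 on chromosome 13 was 0.19. With that running median removed DACH1 rose by 0.47 (adjusted p by limma = 0.0306). INSM1, a neuroendocrine zinc-finger gene, fell by 0.51 and TFAP2B by 0.40 (SE 0.08 and 0.03, adjusted p by limma = 0.00460 and 0.000301). Of the genes named from the 6 lists and as most like PITX1, HOXC10, ITSN2, NEUROD1, SHOX2, TBX2, TGIF2 and TRIM25 share exon bases with another gene, 0.464 to 8.14% of their length per partner, and fragments there cannot be assigned with certainty.

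**Figure D5:**
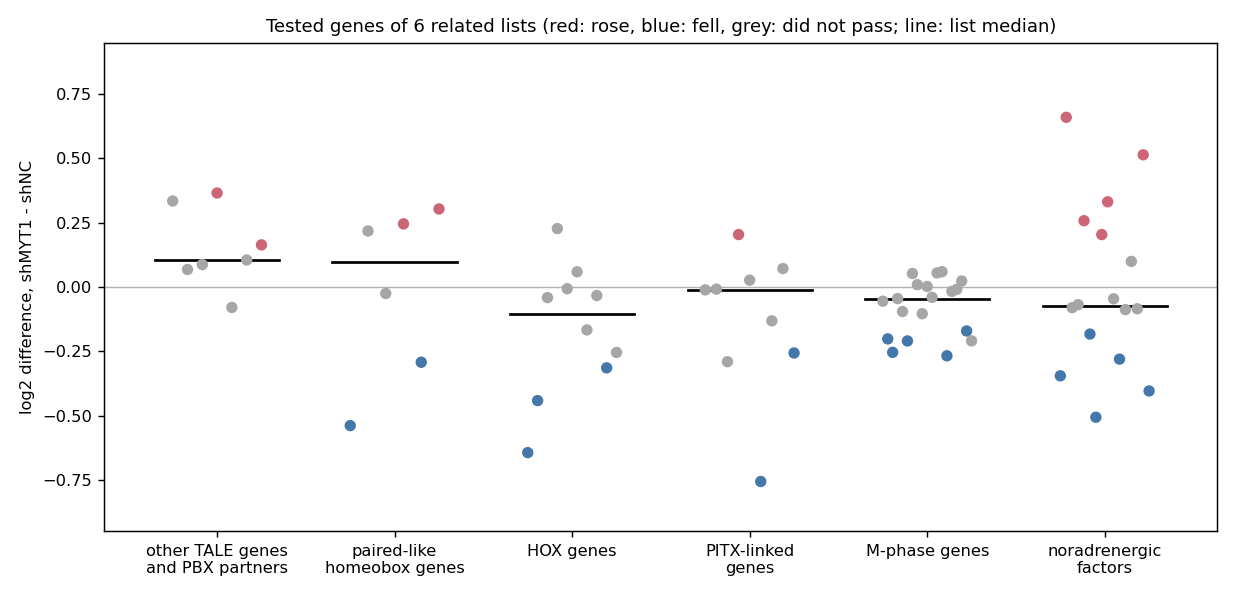
Log2 difference of each tested gene (points) in the 6 related lists, shMYT1 minus shNC, red where it rose, blue where it fell and grey where it did not pass, with a line at the list median. The medians lie between -0.10 and 0.11, and HOX and M-phase genes hold no gene that rose.

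The bases before the members' transcription starts showed little in common. In the 250 bases upstream of the RefSeq starts (GRCh38.p14; 10 windows for the 8 genes), G and C made up 79.2% for PITX1 and 52.4 to 75.6% in the others, against a median of 58% over 35116 windows. The letters AAGTT, the core recognised by MYT1 zinc fingers, were found on either strand in 3 of the 10 windows, 1 each of PBX3, MEIS2 and PBX4, and in 30.3% of all windows. The MEIS letters TGACAG were found in 1 of the 10, that of PBX3, and in 13% of all windows. TAATCC, the PITX letters, and TGATTGAT, the PBX letters, were in 0 of the 10 and in 5.62 and 0.416% of all windows. A match is a description of the sequence and no binding was measured.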

How the data were processed

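RNA of 6 libraries, 3 shNC and 3 shMYT1, had been sequenced from a NEBNext Ultra library preparation, per the labels' protocols. The authors deposited 1 table of FPKM (fragments per kilobase of exon, scaled to library size), with 32434 gene IDs and 1 column per library. HISAT2 2.0.5, featureCounts 1.5.0-p3 and hg38 were used, per the submitters' processing notes; for the annotation, for the strand setting and for any filter, nothing is given in the sources used here. GENCODE 29 gave symbols and positions for 32301 IDs (99.6%). FPKM times exon length came out as a whole number of steps of 1 size in each library (tolerance 0.01) for 95.4% of these IDs and for all 8 members, which gave the fragments behind each value. These cover counting error only, since no molecular identifiers are recorded in the labels.

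Genes averaging 1 FPKM or more were compared between the groups by limma 3.58.1 under R 4.3.3. The fit used log2(FPKM + 1), a mean-variance trend and two-sided tests, and p-values were adjusted over all fitted genes by Benjamini-Hochberg, with a threshold of 0.05. Genes under that mean were read from the same fit with no filter. The method was tested on simulated counts, drawn independently by gene and library with fold changes given to some genes. That simulation held no shifts of chromosome stretches and no culture effects, so it does not check the calls made here. Alternatives changed the pseudocount, filter, scaling, variance model and replicate block, used voom on the recovered fragments, removed the running median of 50 neighbouring genes, or left out 1 library.

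All 8 members are named. From each of 6 related lists, up to 4 passing protein-coding genes with the largest absolute fold change are named, and then the 5 protein-coding genes with the highest Pearson r with PITX1. Members, lists and alternatives were chosen with earlier results of these data known. Some genes that this rule or the lists hold are not reported here.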

Additional observations from a re-analysis of the deposited data

How the results depend on the processing

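The direction of every tested member held in all alternatives run. PITX1 had a log2 difference of -1.13 with a pseudocount of 0.1 FPKM, -1.05 with 0.5 FPKM and -1.15 with voom on recovered fragments, and from -1.0 to -0.95 when 1 library was left out. MEIS2 ranged from -0.16 to -0.12 when 1 library was left out (adjusted p by limma from 0.0277 to 0.0843). The genes past the threshold numbered 3420, and 2038 to 3048 with 1 library left out. With libraries rescaled to the same FPKM total 36.4% of called genes were higher in shMYT1, against 49.2% as deposited, and no member changed its call. Replicate numbers are shared by the groups, but deviations of same-numbered libraries correlated only weakly (r = 0.0327, 0.0127 and 0.0426), although each library correlated best with its own number. With the replicate block 3381 genes passed, and no member's call changed. AURKB did not pass with the running median removed (adjusted p by limma = 0.0554). PITX3 has no value under the filter of 1 FPKM, and PBX4 none under that of 5 FPKM. PITX3 rested on 0 to 5 fragments per library, and PBX4 on 52 to 98.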
